A study of Mus musculus with 46 samples.

Results

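The 45 genes described here were silent or nearly so in the wild-type (WT) inner cell mass (ICM) at embryonic day (E) 3.5 and well expressed in the WT epiblast at E5.5. They were chosen by 2 values: a mean under 2 FPKM over the 7 WT ICM libraries and a mean of at least 20 FPKM over the 3 WT E5.5 epiblast libraries. FPKM is a level scaled by transcript length and by the mapped fragments of the library. Of the 7182 genes of the expression table, 51 met both thresholds, and 6 of these were left out by name (Nnat, and names starting with Slc or Id). The study asked what the loss of Rbbp5 does to mouse embryos, and the question here was whether knockout (KO) embryos activate these genes by E5.5. WT libraries were 7 ICMs and 3 E5.5 epiblasts, each of 1 embryo, and 7 single E4.5 epiblast cells and 1 single E4.5 primitive endoderm cell. KO libraries were 7 ICMs, 3 E5.5 epiblasts, 3 E4.5 epiblast cells and 2 E4.5 primitive endoderm cells. KO zygotes received either Cas9 mRNA with guide RNA against Rbbp5 or, where both Rbbp5 alleles were floxed, Cre mRNA (the route of each single library was not given). ICMs were isolated by immunosurgery and E5.5 epiblasts by hand dissection. No check of the KO labels on Rbbp5 transcript levels was made.

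RBBP5 is a core subunit of the complexes that methylate histone H3 at lysine 4, a mark found at active promoters. Around implantation the epiblast leaves the naive state of the ICM and enters the formative state, in which Otx2 and other transcription factors bring on a new set of genes before the germ layers form. The 45 genes include such transcription factors (Hes6, Mycn, Lef1, Tcf7l1), the Polycomb subunit Phc1, signalling adaptors, cytoskeletal proteins and metabolic enzymes.

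Most of these genes rose in KO embryos, and few reached the level that had defined activation in WT. Of the 45 genes, 42 rose from KO ICM to KO E5.5, where 39.5% of all 5917 genes tested rose. Among 977 other genes also under 2 FPKM in WT ICM, 54.4% rose. None of the 45 fell, where 487 of all genes did, but a median KO ICM mean of 0.44 FPKM left little room to fall. Of the 3 of the 45 genes that were not called, the deltex family ubiquitin ligase gene Dtx3 had a KO E5.5 mean of 1.28 FPKM. In KO E5.5 libraries, 7 of the 45 genes reached the 20 FPKM that defined activation in WT, 36 lay between 2 and 20 FPKM and 2 lay under 2 FPKM (Dtx3 and Calca). The median over the 45 genes of the KO mean was 25.9% of the WT mean, against 91.2% for the 2061 other genes with at least 20 FPKM in WT E5.5. The WT means chose the genes, so this share and the counts at 20 FPKM are a description and support nothing. Some genes lay just above 20 FPKM in WT: Safb, at 20.4 in WT and 18.2 in KO, counts as not reaching it. How many of the other 2061 genes kept 20 FPKM in KO was not computed. Car2, which encodes a carbonic anhydrase, was the only one called higher than in WT, with a KO mean 4.58 times as high as in WT.

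The libraries labelled KO E5.5 epiblast went against that label in their cell type markers. Summed over 6 epiblast markers they held 266, 335 and 536 FPKM, against 1180 to 1308 in the WT libraries. Utf1 held the largest part, at 207, 293 and 390.5 FPKM in KO libraries 1, 2 and 3. Of the 6 markers 5 fell, where 18.5% of all genes tested fell. Pou5f1, which encodes the pluripotency factor OCT4, stood at 4.57, 5.07 and 19.9 FPKM in the KO libraries and at 190, 126 and 103 in WT. Over 9 markers of extraembryonic ectoderm and trophectoderm the KO sums were 2488, 1142 and 1162 FPKM, against 81.7 to 127 in WT. Krt8 and Krt18 held most of the KO sums, at 718 and 1310 FPKM in KO library 1. Of the 8 markers tested 7 rose, where 15.6% of all genes tested rose. Elf5, a transcription factor of the trophoblast lineage, was at 31.6, 30.1 and 33.4 FPKM in the KO libraries and at no more than 0.0451 in WT. Gata3, another trophoblast factor, was at 241, 88.8 and 112 FPKM against at most 0.596. Visceral endoderm markers summed to 20.6 to 31.4 FPKM in KO and 6.78 to 13.5 in WT. Cited1 held the largest part of the KO sums, at 26.4, 10.6 and 20.7 FPKM against 4.90, 1.15 and 3.76 in WT. It was called higher (log2 difference 2.28, SE 0.43, adjusted p = 0.00376), and Dab2, the other marker tested, was not called. Cubn was at 3.94 FPKM in KO library 3 and at most 0.309 in WT. Gata4, Gata6, Sox7, Sox17, Foxa2 and Hnf4a were at 0.256 FPKM or less in every E5.5 library. In such bulk libraries, fewer epiblast cells and less RNA per epiblast cell cannot be told apart, and the part of cell makeup in the values below was not tested. No WT extraembryonic ectoderm was analysed here. KO library 3 had the highest epiblast marker sum of the 3.

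**Figure D1:**
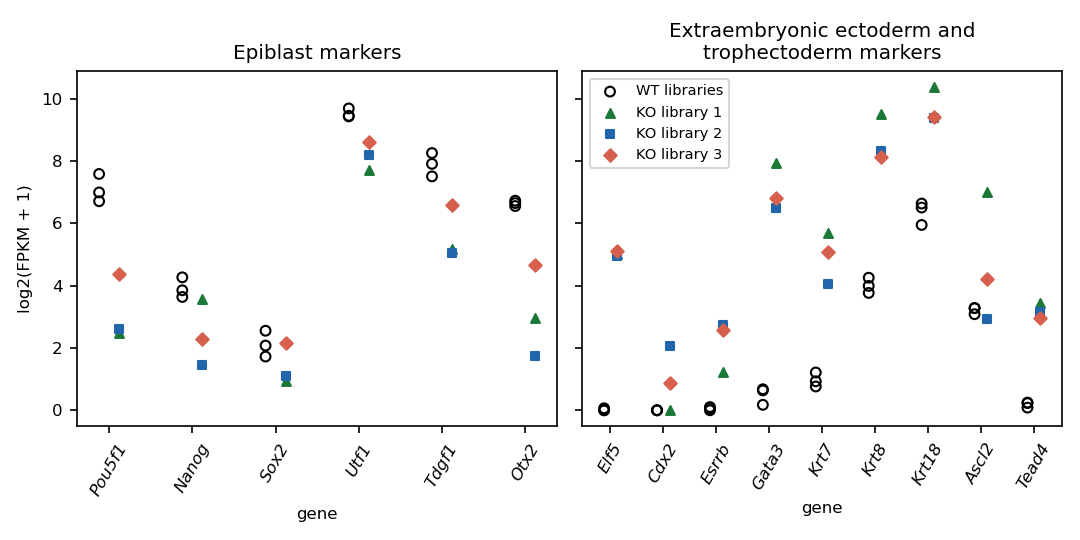
Levels of epiblast markers (left) and of extraembryonic ectoderm and trophectoderm markers (right) in the 6 E5.5 libraries, as log2(FPKM + 1). Each point is 1 library of 1 embryo; the KO libraries lie below WT for Pou5f1, Utf1, Tdgf1 and Otx2 and above WT for Elf5, Gata3, Krt7, Krt8, Krt18 and Tead4.

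The promoters of the 45 genes, as listed by RefSeq for GRCm38.p6, are shown first because CpG-rich promoters are where H3 lysine 4 methylation is usually found. The table held a window from 250 bases before to 50 bases after the start for 40 of the 45 genes, and the first listed window was used for the 12 genes with several. The ratio of observed to expected CpG reached 0.6 in 22 of 40 windows (55%), against 72.8% of all genes with a window and 83.2% of the other genes with at least 20 FPKM in WT E5.5. The share was 74.1% among the genes that were also under 2 FPKM in WT ICM but reached 2 to 20 FPKM in WT E5.5. The median GC content was 60.7% in the 45 genes, 60.7% over all genes, 60.3% in the other genes at 20 FPKM or more and 63.0% in the genes that reached 2 to 20 FPKM. The windows spanned a wide range, as these 3 show (CG dinucleotides in capitals): Gng3 with the lowest ratio (0.09, chr19:8839197-8839496, minus strand), Safb with the highest (1.21, chr17:56584732-56585031, plus strand), and Hes6 with the highest WT level among the genes that fell (0.53, chr1:91413989-91414288, minus strand).
Gng3: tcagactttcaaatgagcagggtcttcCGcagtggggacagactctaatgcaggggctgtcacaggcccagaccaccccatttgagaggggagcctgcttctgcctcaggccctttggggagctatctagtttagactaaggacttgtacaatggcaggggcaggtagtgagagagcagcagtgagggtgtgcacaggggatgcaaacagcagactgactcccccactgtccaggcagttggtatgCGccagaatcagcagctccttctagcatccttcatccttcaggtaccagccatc
Safb: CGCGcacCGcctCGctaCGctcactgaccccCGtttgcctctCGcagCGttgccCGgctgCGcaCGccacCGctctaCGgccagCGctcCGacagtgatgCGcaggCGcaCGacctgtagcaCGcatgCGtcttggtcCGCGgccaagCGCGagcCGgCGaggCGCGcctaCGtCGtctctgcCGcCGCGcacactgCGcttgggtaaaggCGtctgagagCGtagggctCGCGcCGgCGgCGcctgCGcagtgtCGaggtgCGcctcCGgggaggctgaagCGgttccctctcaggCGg
Hes6: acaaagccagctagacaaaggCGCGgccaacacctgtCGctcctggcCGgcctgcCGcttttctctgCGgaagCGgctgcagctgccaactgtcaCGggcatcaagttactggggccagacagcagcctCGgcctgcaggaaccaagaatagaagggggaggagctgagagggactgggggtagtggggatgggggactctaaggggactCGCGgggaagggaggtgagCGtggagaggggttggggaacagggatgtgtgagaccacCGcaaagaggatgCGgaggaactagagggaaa
Gng3 and Hes6 fell in KO E5.5 and Safb was not called, but the 32 genes with a window that fell and the 8 that were not called lower had median ratios of 0.64 and 0.70.

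**Figure D2:**
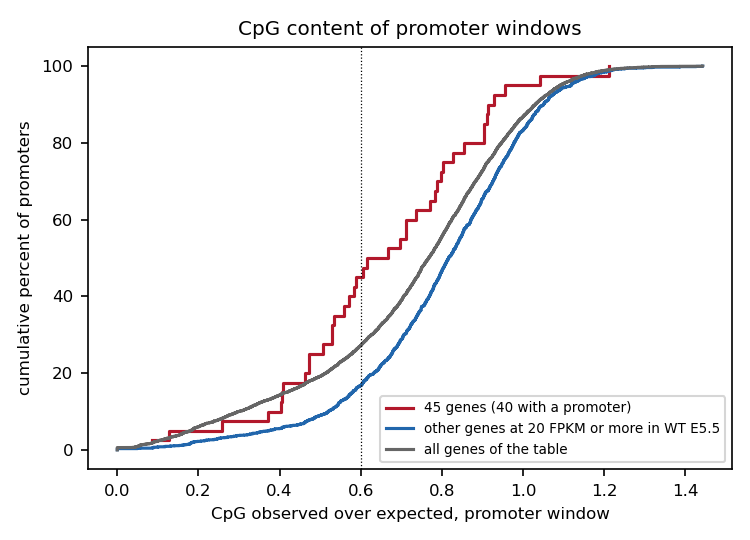
Cumulative percent of promoter windows (y axis) against the ratio of observed to expected CpG (x axis) for the 45 genes, the other genes with at least 20 FPKM in WT E5.5 and all genes with a window. The dotted line marks 0.6; the curve of the 45 genes lies to the left of the other genes over most of the range.

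Short motifs were searched in these windows on both strands. The GC box (GGGCGG) was in 65% of the 40 windows and 65.7% of all windows, the SMAD box (CAGAC) in 55% and 47.4%, the OTX core (GATTA) in 15% and 14.7%, and the TATA box (TATAAA) in 5% and 7.47%. The E-box (CACGTG) was in 5% against 10.8% and the TCF motif (CTTTGAT) in 5% against 2.21%. The octamer (ATGCAAAT) and the SOX motif (AACAAAG) had no match in the 40 windows, against 1.5% and 3.87% of all windows.

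The genes lie on 17 chromosomes, and 6 of the 45 (13.3%) are X-linked, against 4.04% of the 6834 table genes with a position. Of these, Bhlhb9, Arxes2, Arxes1 and Bex2 lie within 227 kb of each other (GRCm38.p6, chrX:135841639-136068236). Arxes1 and Arxes2 are near-identical copies, so reads may be split between them in a way the counting decided. Their promoter windows, centred on different starts, are equal at 300 of 300 bases, and that of Arxes1 (chrX:136033117-136033416, plus strand) is shown for both, with CG in capitals.
Arxes1: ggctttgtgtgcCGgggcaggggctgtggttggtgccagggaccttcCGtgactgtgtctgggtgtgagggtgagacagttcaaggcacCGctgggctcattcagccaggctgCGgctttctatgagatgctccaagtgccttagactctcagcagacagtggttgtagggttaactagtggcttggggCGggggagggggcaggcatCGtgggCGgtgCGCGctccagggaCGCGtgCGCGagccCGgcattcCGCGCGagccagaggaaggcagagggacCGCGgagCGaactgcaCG
The copies had close values in each E5.5 library. Arxes1 stood at 23.2, 36.0 and 34.0 FPKM in WT libraries 1, 2 and 3 and at 4.66, 2.72 and 13.1 in KO libraries 1, 2 and 3. Arxes2 stood at 20.7, 37.7 and 36.2 in WT and at 5.51, 2.87 and 14.02 in KO. Bhlhb9 fell in the same way, with 21.9, 20.2 and 23.0 FPKM in WT and 1.87, 1.89 and 7.18 in KO. Bex2, the fourth gene of the interval, did not follow: its 109, 105 and 92.6 FPKM in WT stood against 75.4, 129 and 65.5 in KO (log2 difference -0.24, SE 0.24, adjusted p = 0.465). The next 3 genes of the table on the same side, Bex4, Tceal8 and Bex1, were no members. Bex4 averaged 210 ± 9.84 FPKM in WT and 31.4 ± 16.4 in KO, Tceal8 151 ± 27.5 and 20.6 ± 14.1, and Bex1 312 ± 23.5 in WT and 781 ± 253 in KO (SD, n = 3 each). KO library 1 and none of the other E5.5 libraries had under 1 FPKM summed over Y-linked genes, and the part of sex in the X-linked values was not tested.

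In ICM the genes were low in KO as in WT, which the rule had fixed for WT only. The KO ICM mean was under 2 FPKM for 41 of the 45 genes, and no gene reached 20 FPKM in any of the 7 KO ICM libraries. The other 4 were Bex2 (4.02 ± 5.74), Hist2h3b (2.97 ± 4.61), Ddah2 (2.40 ± 2.34) and Tssc4 (2.16 ± 3.17 FPKM, SD, n = 7), with an SD above the mean for all but Ddah2. Aire, Calca, Dhrs4, Ifitm1, Irf1 and Lef1 were listed at 0 in all 7 KO ICM libraries. KO ICM libraries listed fewer genes of any kind, with 3628 to 5136 genes at 1 FPKM or more against 5110 to 5718 in WT ICM, and whether a 0 there is a missed transcript was not tested.

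The rise within KO embryos is a test the choice of genes did not use, since the rule read WT libraries only. KO E5.5 was compared with KO ICM by limma on log2(FPKM + 1), and a gene was called with a Benjamini-Hochberg adjusted p under 0.05 over all genes. The filter, a mean of 1 FPKM over the 20 embryo libraries, held the WT E5.5 libraries too, so the rule made all 45 genes pass it. Of the 45 genes, 42 were called higher, against 54.4% of 977 other genes that were also under 2 FPKM in WT ICM. In 32 of the 45 genes every KO E5.5 library lay above every KO ICM library, where 36.9% of all genes tested did. With the filter on the 10 KO libraries alone, 41 of the 45 were tested and 39 were called, against 39.8% of 5604 genes, with Calca, Dhrs4, Dtx3 and Eno3 not tested. The largest rises were those of Car2 (log2 difference 6.80, SE 0.61, adjusted p = 3.90e-06), Mycn (5.43, SE 0.49, adjusted p = 3.90e-06) and Bex2 (4.91, SE 0.85, adjusted p = 0.000483). The median log2 difference was 2.73 over the 45 genes and 1.03 over all genes tested, of which 2335 rose and 487 fell, so the members exceeded the general shift by 1.70. Quantile normalization, which removes that shift (1015 genes higher and 904 lower, median 0.00), left 28 of the 45 called, against 17.2% of all genes, and a member median of 1.61. Median ratio scaling left 32, against 19.5%, with 1152 genes higher and 759 lower.

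**Figure D3:**
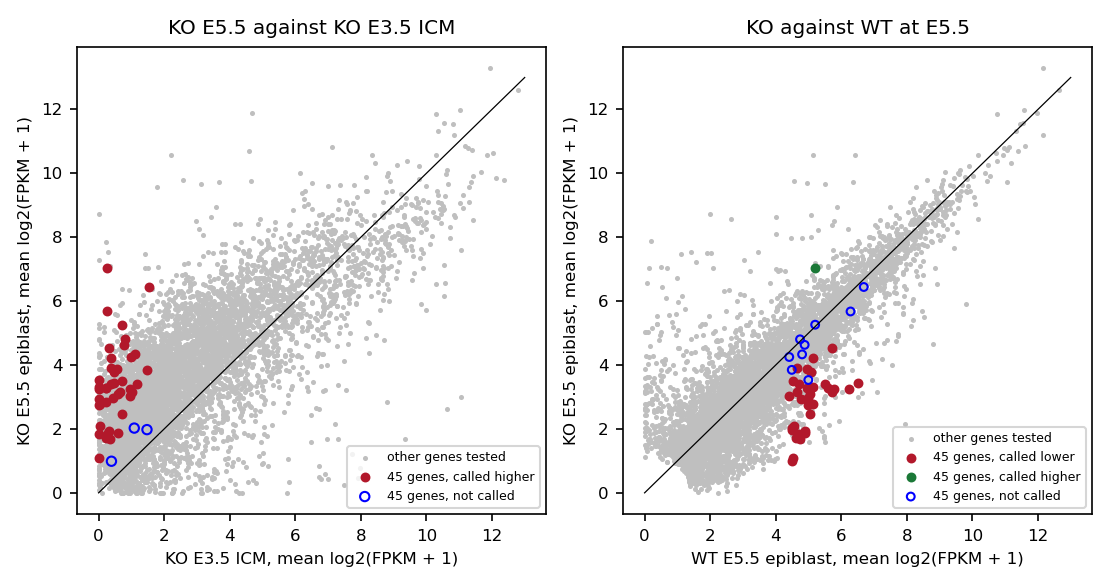
Mean log2(FPKM + 1) of each gene in KO E5.5 epiblast libraries (n = 3) against KO ICM libraries (n = 7, left) and against WT E5.5 epiblast libraries (n = 3, right); the line marks equal means. The 45 genes lie above the line on the left, 42 of them called, and mostly below it on the right, with 35 called lower, 1 higher and 9 not called.

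The 3 genes not called on this path were Dtx3, Ddah2 and Bhlhb9. Dtx3 was at 0.831, 0.0962 and 2.90 FPKM in the KO E5.5 libraries, within the KO ICM range of 0 to 2.36 but for 1 library (log2 difference 0.60, SE 0.47, adjusted p = 0.302). Ddah2, an enzyme that breaks down asymmetric dimethylarginine, was at 3.06, 0.308 and 10.5 FPKM against 0.109 to 6.95 in KO ICM (0.50, SE 0.71, adjusted p = 0.576). Bhlhb9 had a log2 difference of 0.94 (SE 0.61, adjusted p = 0.214). For these genes activation was not detectable with these libraries.

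How far below WT the KO levels lay was described with the 3 WT E5.5 libraries, which also chose the genes, so nothing is read from the number that were lower. By limma on the 6 E5.5 libraries, 35 of the 45 genes were called lower (18.5% of all 5956 genes tested and 23.0% of the other genes at 20 FPKM or more), 1 higher (15.6% of all) and 9 were not called. Every KO library lay below every WT library for 37 genes (26.6% of all genes), above for 1 (22.6% of all), and the groups overlapped for 7. The median log2 difference was -1.94 over the 45 genes and -0.07 over all genes. When all 4 embryo groups shared 1 estimate of spread, 26 of the 45 were called, all lower, against 6.06% of all genes called lower and 702 genes called in all.

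**Figure D4:**
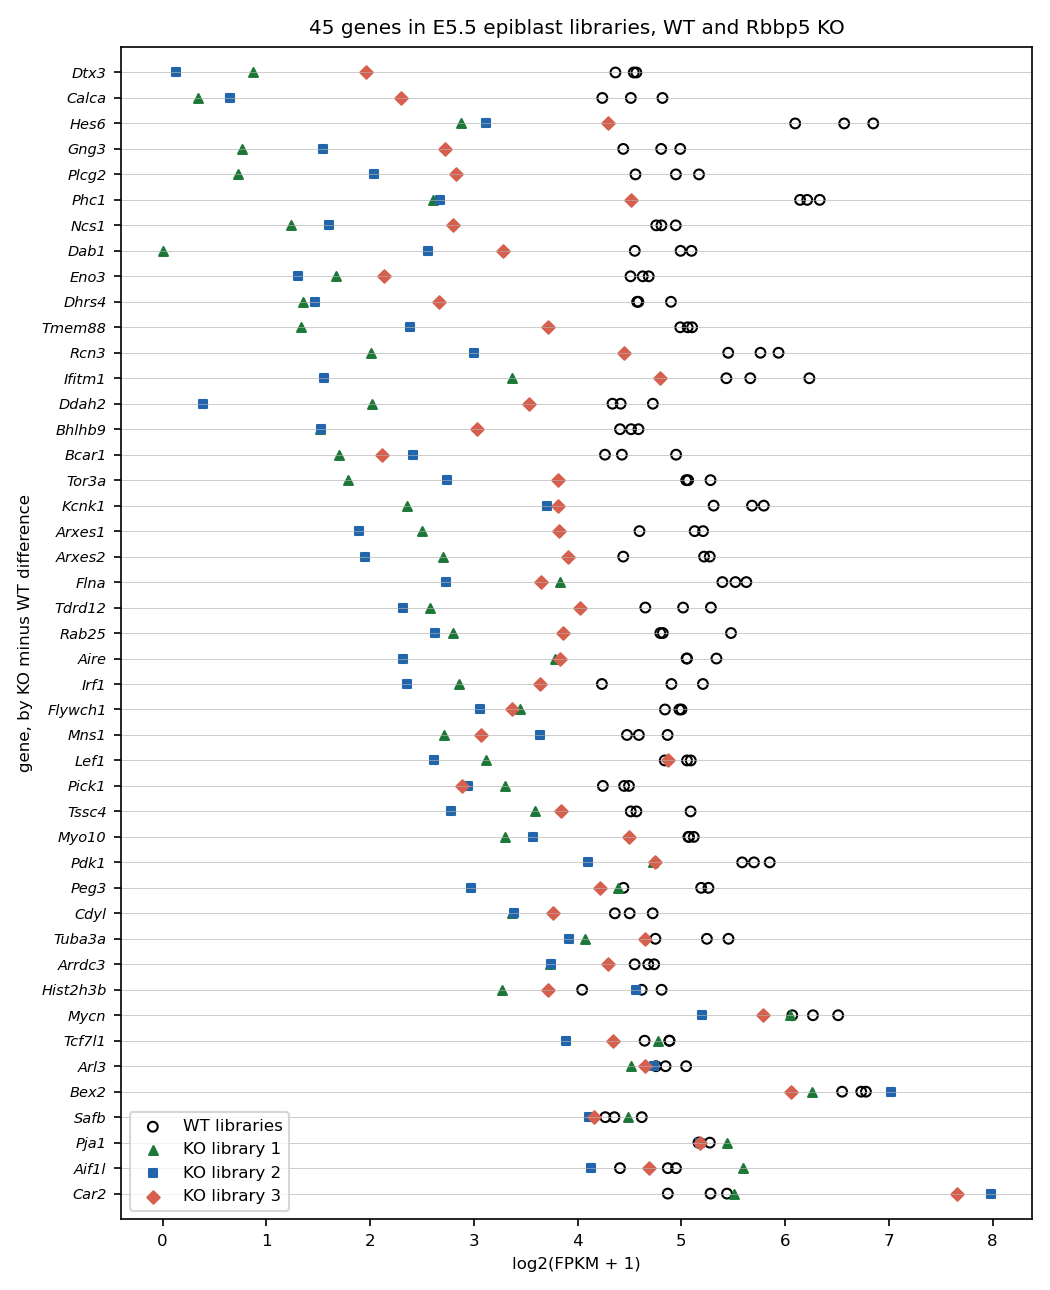
FPKM of the 45 genes in each of the 6 E5.5 epiblast libraries, as log2(FPKM + 1), ordered from the largest KO deficit (top) to the largest excess (bottom). Open circles are the WT libraries and filled symbols the KO libraries; KO library 3 is the highest of the KO points for 30 genes.

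Among the transcription factors, Hes6 fell furthest. Hes6, a basic helix-loop-helix factor of the Hes family, was at 114, 67.4 and 94.0 FPKM in WT libraries 1, 2 and 3 and at 6.34, 7.68 and 18.6 in KO libraries 1, 2 and 3 (log2 difference -3.08, SE 0.36, adjusted p = 0.000367). Lef1, a nuclear effector of Wnt signalling, was at 27.6, 32.2 and 33.1 in WT and at 7.66, 5.12 and 28.2 in KO. Its 3 KO libraries split, with library 3 inside the WT range, and it was not called (-1.46, SE 0.51, adjusted p = 0.0549). Tcf7l1, the Wnt pathway repressor of the same family, was at 28.6, 28.5 and 24.0 in WT and 26.3, 13.8 and 19.3 in KO (-0.47, SE 0.25, adjusted p = 0.166). Mycn, the N-Myc proto-oncogene, reached 65.0, 35.7 and 54.3 in KO against 76.1, 90.2 and 66.1 in WT, so that its groups did not overlap and it was still not called (-0.61, SE 0.24, adjusted p = 0.0721). Thus Mycn and Tcf7l1 came to 66.7% and 73.2% of WT, and Hes6 to 11.8%. Irf1, an interferon regulatory factor, fell from 36.0, 17.8 and 28.9 to 6.25, 4.13 and 11.5 FPKM. Aire, known for switching on tissue-restricted genes in the thymus, fell from 32.2, 32.1 and 39.5 to 12.7, 3.97 and 13.2. Peg3, an imprinted zinc finger gene expressed from the paternal allele, was at 35.5, 20.7 and 37.4 in WT and 20.02, 6.87 and 17.6 in KO, near the threshold (adjusted p = 0.0498).

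The wider list of formative epiblast transcription factors, to which Hes6, Mycn, Lef1 and Tcf7l1 belong, was fixed with results of these data known. Of its 19 measured genes, 15 were tested, and 10 fell (18.5% of all genes tested fell), 5 were not called and none rose (15.6% of all rose). Otx2, the homeobox gene that drives entry into the formative state and itself just missed the ICM threshold, was at 92.8, 105 and 99.2 FPKM in WT and 6.85, 2.38 and 24.2 in KO. The epithelial factor Grhl2 was not called (log2 difference 0.06, SE 0.31, adjusted p = 0.892). Of 15 genes of DNA methylation and chromatin, 8 fell, among them the de novo methyltransferase gene Dnmt3b (-2.79, SE 0.40, adjusted p = 0.00145), and 2 rose, among them Tet2 (2.07, SE 0.33, adjusted p = 0.00139).

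Of the chromatin and RNA-related members, Phc1 fell most. Phc1, a subunit of Polycomb repressive complex 1, was at 79.6, 73.2 and 69.7 FPKM in WT and 5.10, 5.37 and 21.8 in KO (log2 difference -2.97, SE 0.46, adjusted p = 0.00210). Cdyl, a chromodomain corepressor, was at 21.7, 19.5 and 25.4 in WT and 9.30, 9.49 and 12.6 in KO. Tdrd12, a Tudor domain protein of the piRNA pathway, fell from 38.0, 24.2 and 31.4 to 4.98, 3.99 and 15.2. The histone H3 gene Hist2h3b, whose reads may be shared with other H3 genes, and Safb, a nuclear scaffold attachment factor, were not called, at 65.7% and 89.0% of WT. Flywch1 went from 30.6, 31.0 and 27.7 FPKM to 9.91, 7.32 and 9.29, with the KO libraries close together.

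Signalling members had KO means from 5.93% (Dtx3) to 59.5% (Arrdc3) of WT. Calca, which encodes calcitonin and calcitonin gene-related peptide, was at 21.8, 17.9 and 27.2 FPKM in WT and 0.270, 0.570 and 3.93 in KO (log2 difference -3.42, SE 0.47, adjusted p = 0.000785). Dtx3 was at 22.7, 19.6 and 22.3 in WT, and its KO values are given above. Gng3, a G protein gamma subunit, fell from 30.8, 20.7 and 27.0 to 0.702, 1.91 and 5.58. These 3 genes each had a KO library under 1 FPKM. Plcg2, a phospholipase C, fell from 35.0, 22.6 and 29.9 to 0.660, 3.10 and 6.08. Ncs1, a neuronal calcium sensor, fell from 27.0, 26.1 and 29.8 to 1.35, 2.05 and 5.95. Dab1, the adaptor of the reelin receptors, fell from 22.4, 30.8 and 33.2 and was listed at 0, 4.89 and 8.72 in KO. In all of these KO library 3 was the highest KO library. Tmem88, an inhibitor of Wnt signalling, fell from 33.4, 30.8 and 32.4 to 1.52, 4.23 and 12.2. Bcar1, the scaffold protein p130Cas, differed in that KO library 2 was highest: 29.9, 20.5 and 18.2 in WT and 2.26, 4.32 and 3.33 in KO. Ddah2 was at 25.5, 20.3 and 19.2 in WT, above all 3 of its KO values. Ifitm1, an interferon-induced membrane protein, had the widest KO range of the group, from 1.95 in library 2 through 9.31 in library 1 to 26.8 in library 3, against 74.3, 42.2 and 49.7 in WT. Pick1, a PDZ domain protein, was milder, with 17.9, 20.8 and 21.6 in WT and 8.83, 6.69 and 6.41 in KO. Arrdc3, an arrestin domain protein, was at 22.4, 24.7 and 25.7 in WT and 12.3, 12.4 and 18.6 in KO.

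The cytoskeletal, channel and trafficking members had KO means from 20.4% to 113% of WT. Flna, the actin crosslinker filamin A, fell from 41.1, 48.4 and 44.9 FPKM to 13.3, 5.66 and 11.6 (log2 difference -2.11, SE 0.28, adjusted p = 0.000553). Kcnk1, a two-pore potassium channel, fell from 38.7, 50.3 and 54.5 to 4.14, 12.01 and 13.1. Rab25, an epithelial Rab GTPase, fell from 43.6, 27.3 and 26.8 to 5.95, 5.19 and 13.5. Their KO means were 20.4% to 25.2% of WT. Myo10, a myosin of filopodia, was at 33.8, 32.7 and 32.5 in WT and 8.82, 10.9 and 21.5 in KO. Mns1, a protein of motile cilia and sperm tails, was at 21.3, 28.2 and 23.1 in WT and 5.57, 11.4 and 7.41 in KO. The alpha tubulin gene Tuba3a, whose close relatives may share its reads, was at 37.0, 25.9 and 42.8 in WT and 15.8, 14.1 and 24.2 in KO. Arl3, a small GTPase of cilia, and Aif1l, an actin-binding protein, were not called and came to 83.4% and 113% of WT. Aif1l varied widely among the KO libraries, with 47.3, 16.5 and 24.8 FPKM.

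Enzymes and proteins of the secretory pathway held the one rise and several of the large falls. Car2 was at 37.9, 28.2 and 42.4 FPKM in WT and 44.5, 252 and 201 in KO (log2 difference 1.85, SE 0.58, adjusted p = 0.0414). All 3 KO libraries lay above WT, but library 1 by little, and the call was lost without any one of WT libraries 1 to 3, KO library 2 or KO library 3. Eno3, the muscle enolase, fell from 23.7, 24.7 and 21.8 to 2.19, 1.47 and 3.40 (-2.90, SE 0.27, adjusted p = 5.58e-05), the smallest adjusted p of the 45. Dhrs4, a short-chain dehydrogenase, fell from 28.9, 22.8 and 23.0 to 1.56, 1.77 and 5.33. Pdk1, the kinase that restrains pyruvate dehydrogenase, stayed higher, at 25.4, 16.1 and 25.9 in KO against 47.0, 51.0 and 56.7 in WT. Rcn3, a calcium-binding protein of the endoplasmic reticulum, fell from 42.8, 53.3 and 60.2 to 3.04, 6.99 and 20.8. Tor3a, a torsin, fell from 32.5, 32.1 and 37.9 to 2.44, 5.67 and 13.1. The ubiquitin ligase gene Pja1 had the same level in both groups within their spread, with 35.1, 34.9 and 37.7 FPKM in WT and 42.3, 35.1 and 35.2 in KO. Tssc4 was at 33.0, 21.8 and 22.7 in WT and 11.1, 5.87 and 13.3 in KO.

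KO library 3 had the highest median of the KO libraries over these genes, and it was often the highest for other genes as well. It also listed the most genes at 1 FPKM or more, 5895 against 5597 and 5457 in KO libraries 1 and 2. The median over the 45 genes was 6.34, 5.67 and 13.2 FPKM in KO libraries 1, 2 and 3, against 28.2 to 30.8 in the WT libraries. It was the highest KO library for 30 of the 45 genes (66.7%), for 56.5% of the other genes at 20 FPKM or more in WT, and for 48.9% of all genes tested. It was also the KO library with the highest Pou5f1, Otx2, Sox2, Utf1 and Tdgf1. Nanog went the other way, at 10.8, 1.73 and 3.88 FPKM in KO libraries 1, 2 and 3. Without KO library 3, 34 of the 45 genes were called higher than in KO ICM (26.1% of all genes in that fit) and 36 were called lower than WT (22.5%).

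Single E4.5 epiblast cells, between the 2 stages, held values of these genes that the rule did not use. The labels tie no cell to an embryo, so each group counts as 1 sample and no test was made. In WT cells, 34 of the 45 genes were at 2 FPKM or more in at least 4 of 7 cells, and 12 were at 20 FPKM or more in that many. In KO cells, 11 were at 2 FPKM or more in at least 2 of 3 cells, and 21 were under 2 FPKM in all 3. Of the 45 genes, 7 to 25 per WT cell and 30 to 35 per KO cell were under 2 FPKM. The share of cells asked for differed between the genotypes, and the shares over all genes were not computed. These counts are therefore a description and no result about the 45 genes. KO cells also listed fewer genes of any kind, 3026 to 3628 at 1 FPKM or more against 3878 to 4682, and the part of this in the member counts was not tested. Epiblast markers, by contrast with the E5.5 libraries, summed to 1284 to 2605 FPKM in KO cells and 1476 to 2336 in WT cells.

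Some genes were at 0 in KO cells and high in most WT cells, or lower in every KO cell than in any WT cell. Aire was listed at 0 in all 3 KO cells and at 6.91 to 159 FPKM (median 42.7) in the WT cells. Ifitm1 was listed at 0 in the KO cells and had a WT median of 105, with 1 WT cell at 0. Phc1 was at 1.15, 22.9 and 6.44 in KO cells, below all WT cells (46.7 to 91.3). Aire, Phc1, Bhlhb9 and Flywch1 were the 4 genes of the 45 with all KO cells below all WT cells (3.29% of all 7182 genes), and none had all KO cells above (2.35% of all). Hes6 was different: its KO cells held 16.7, 22.9 and 82.5 FPKM and its WT cells 2.10 to 52.4 (median 20.2), although it was among the lowest relative to WT at E5.5. Ddah2, not called between KO ICM and KO E5.5, was at 15.2, 74.4 and 44.0 in KO cells and 67.9 to 185 in WT cells. Aif1l, Kcnk1 and Rab25 stayed under 2 FPKM in every E4.5 epiblast cell of both genotypes. They were not alone in reaching 20 FPKM in WT only at E5.5 among epiblast and ICM samples. Arrdc3, Dtx3, Flywch1, Hist2h3b, Lef1, Ncs1, Plcg2, Rcn3, Tdrd12 and Tmem88 also stayed under 20 FPKM in every WT E4.5 epiblast cell. No gene of the 45 reached 20 FPKM in any WT ICM library.

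**Figure D5:**
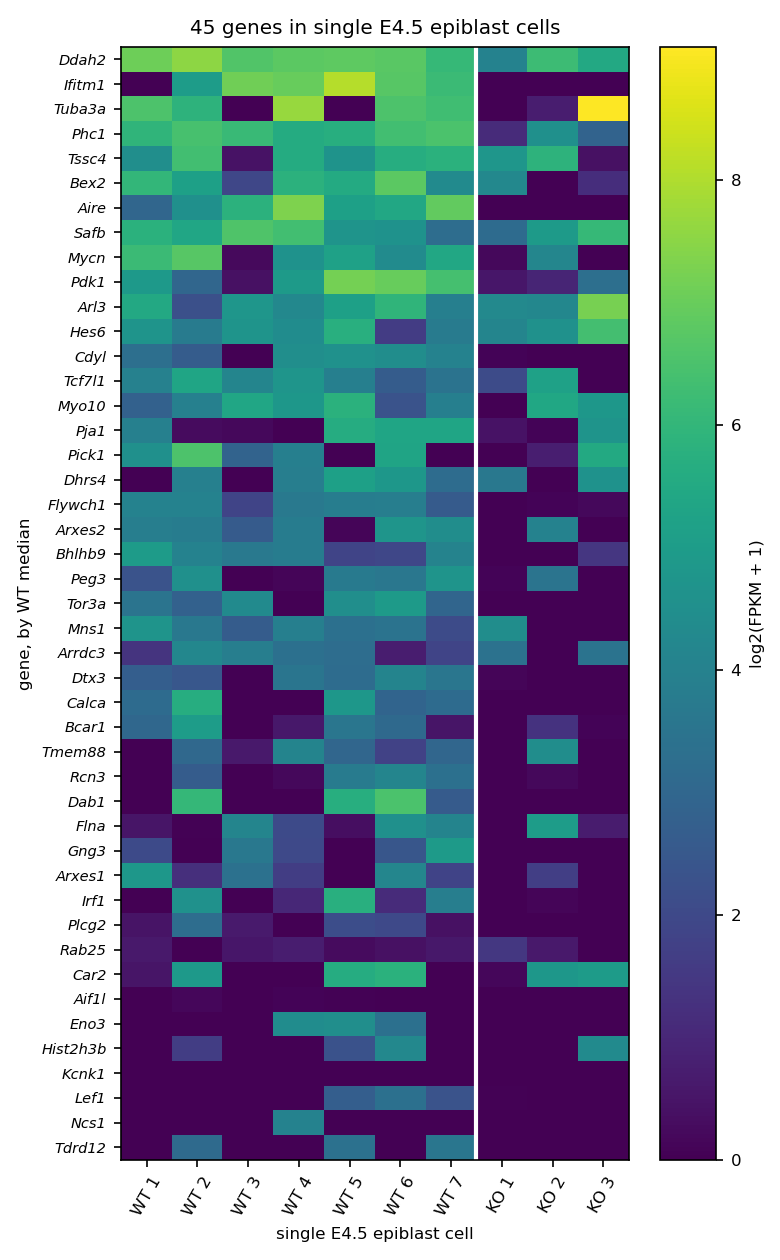
Levels of the 45 genes in single E4.5 epiblast cells as log2(FPKM + 1), with 7 WT cells left and 3 KO cells right of the white line, ordered by the WT median. Aire and Ifitm1 are bright in most WT cells and at 0 in the KO cells, while Hes6, Safb and Arl3 are seen in all 3 KO cells.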

How the data were processed

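Per the labels' protocols, cDNA was made by SMART-seq2 from ICMs or epiblasts of 1 embryo each and from single cells of E4.5. The authors deposited FPKM values for 33 RNA libraries in 1 table of 7186 lines, and 4 lines with 2 repeated names were left out. Trim Galore 0.6.4 and STAR 2.7.3 are named in the submitters' processing notes, and the tool behind the FPKM values is not given in the sources here. Depth is unknown: among 403 low genes the ratio of WT E5.5 libraries 1 and 2 gathered at log2 ratios of -0.375 and 0.625, so steps of reads were seen but their relative size was ambiguous by a factor of 2. The 4 methylation tables were not used.

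Levels were compared as log2(FPKM + 1), which understates changes of low genes, by limma (version 3.58.1, R 4.3.3, with a variance trend and robust moderation) and Benjamini-Hochberg adjustment over all genes, called under 0.05. KO E5.5 against KO ICM used genes averaging 1 FPKM or more over the 20 embryo libraries, and KO against WT E5.5 the same over its 6 libraries. Both fits were tested on simulated data. Members called against WT, the 12 with the highest WT E5.5 mean, those not called against KO ICM and those in a gene list are given with every E5.5 library; the rest are given by counts. Nearest the thresholds, Eno3 (1.92 FPKM in WT ICM) and Hist2h3b (1.89) were inside and Otx2 (2.07) and Mta2 (2.10) outside, and Pick1 (20.1 FPKM in WT E5.5) and Safb (20.4) inside and Zic5 (19.4) and Pycr1 (19.4) outside. The members and lists were chosen with earlier results of these data known. Alternatives were other pseudocounts, filters, scalings, weights, a shared spread, a replicate block and leaving out each library.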

Additional observations from a re-analysis of the deposited data

Results flagged for a closer look

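Of 55 sets of 7 ICM values examined, 19 (34.5%) had a library far from the other 6, by a gap of more than 0.568 of the range. That limit is made for normally distributed values, and many of these genes were at 0 in most KO ICM libraries. Arxes1, Bcar1, Car2, Kcnk1, Tdrd12 and Tor3a were at 0 in 6 of the 7, where any value above 0 passes the limit. The number flagged is therefore not set against a chance rate. KO ICM library 2 had 33 of the 45 genes under 2 FPKM, the fewest of the KO ICMs, and WT ICM library 3 had 27 of the 45 genes listed at 0, the most of the WT ICMs. KO ICM library 2 held the outlying value for Arxes1 (0.123 FPKM), Arxes2 (1.82), Bcar1 (0.276), Dab1 (2.53), Hes6 (4.33), Kcnk1 (2.18), Ncs1 (1.41) and Tuba3a (2.17). Other KO ICM libraries did so for Car2 (2.40 FPKM, library 7), Mycn (2.17, library 7), Flna (1.27, library 1), Gng3 (1.95, library 5), Tor3a (0.290, library 5), Hist2h3b (13.3, library 6), Tmem88 (8.01, library 6), Rab25 (12.1, library 3) and Tdrd12 (7.04 FPKM, library 4). Without KO ICM library 2, 40 of the 45 genes were called higher in KO E5.5, where 2365 of all 5933 genes tested were.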

How the results depend on the processing

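The number of genes meeting the rule was 25 with a WT ICM limit of 1 FPKM, 125 with 5 FPKM, 128 with a WT E5.5 limit of 10 FPKM and 9 with 40 FPKM. The median log2 difference of the 45 genes between KO ICM and KO E5.5 was 4.91 with a pseudocount of 0.1, 1.25 with a pseudocount of 5, 1.61 after quantile normalization and 2.12 after median ratio scaling. The count called higher there was 34 to 41 with 1 library left out, where 1536 to 2455 of all genes tested were called higher. It was 39 without KO ICM libraries 1, 4 and 6 (2327 of 5995 genes) and 28 after quantile normalization (1015 of 5917). Against WT, 29 to 36 were called with 1 library left out, where 1205 to 2185 of all genes tested were called. The single higher call (Car2) became 0 with a pseudocount of 5 and with the 4 groups in 1 fit, and was 0 to 1 with one library left out. The direction between KO ICM and KO E5.5 turned after quantile normalization for Bhlhb9 (-0.12), Ddah2 (-0.59), Dtx3 (-0.14) and Plcg2 (-0.0164), after median ratio scaling for Ddah2 (-0.0814), and without KO E5.5 library 3 for Ddah2 (-0.27, with a range of -0.27 to 1.30 when each library was left out). Against WT it turned for Aif1l without WT library 1 (-0.10) or KO library 1 (-0.33, range -0.33 to 0.40) and for Pja1 without KO library 1 (-0.0280, range -0.0280 to 0.10). The cause was not tested. Genes called in all against WT numbered 2032, and 1205 without WT library 1 and 1293 without WT library 2. With the replicate block, 38 of the 45 were called higher than in KO ICM, where 2057 of all 5917 genes were. Against WT, 37 were called with that block, where 1950 of all 5956 genes were. Same-numbered libraries correlated by 0.00 to 0.04 in the first comparison, and other pairs by -0.07 to 0.06. In the second, same-numbered libraries correlated by -0.02, 0.06 and 0.12, and other pairs by -0.11 to 0.05. With so few libraries these values cannot decide whether the numbers mark pairs. FPKM give no depth, so how far the zeros of ICM and single-cell libraries reflect depth was not tested.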

Other observations

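Among the E4.5 primitive endoderm cells, 1 WT and 2 KO, several of the 45 genes were high although they were chosen on epiblast. The WT cell held 13 of them at 20 FPKM or more, with Car2 at 877, Mycn at 292, Tssc4 at 267, Rcn3 at 190 and Bex2 at 109 FPKM. Each KO cell held 7 at that level. Car2 was at 66.3 and 0.736 FPKM in the KO cells, Rcn3 at 33.4 and 13.7, and Bex2 at 0.418 and 0.160. Pja1 was at 66.2 in the WT cell and 63.7 and 79.1 in the KO cells, and Safb at 67.7 against 162 and 87.1. Mns1 was listed at 0 in the WT cell and stood at 40.7 and 37.3 in the KO cells. With 1 and 2 cells of unnamed embryos no comparison was made.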
